A study of Mus musculus with 2 samples.

Results

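A set of 10 genes of the Notch pathway and of secretory cell fate was followed through the colon epithelium in chronic DSS colitis, in WT mice and in a HIF-1α KO. They were 2 receptors (Notch1 and Notch2), 3 ligands (Dll1, Dll4 and Jag1), the Notch target Hes1, and the fate regulators Atoh1, Spdef, Gfi1 and Neurog3. The genes were found by their exact symbols, and all 10 were present among the 32285 genes of the count tables. Colon tissue was frozen on day 28, after 4 cycles of 3 d of 2% dextran sodium sulfate (DSS) in the drinking water and 4 d of recovery, which mice of both genotypes received at an age of 8 to 12 wk. The mice of the HIF-1α KO group were labelled Ncr1cre+ Hif-1αfl+/fl+, with Cre driven by the Ncr1 (NKp46) promoter, so that the deletion was meant for NKp46+ cells and not for the epithelium described here, and the WT mice were labelled wild type. Tissue of 3 animals was pooled per genotype, and each pool gave 1 library of single nuclei. No difference between the genotypes therefore had a replicate check, no test was possible and no p-value is given. Paired values below give the WT library first and the HIF-1α KO library second.

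Notch is a receptor between neighbouring cells: a ligand of the Delta or Jagged family on one cell binds the receptor on the next, the receptor is cut, and its inner part joins the DNA-binding protein Rbpj to switch on targets such as Hes1. In intestinal crypts Hes1 represses Atoh1, and cells that escape this repression and express Atoh1 enter the secretory lineage. Spdef and Gfi1 act below Atoh1 in goblet cells, and Neurog3 starts the enteroendocrine program.

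The start regions of 3 of the genes are shown because Atoh1, Spdef and Dll4 were higher in goblet-like nuclei in both libraries and because each holds 1 match to a motif of this pathway. RefSeq promoters were matched for 9 of the 10 genes, all but Hes1, and 280 bases were read from each, 250 before the start of transcription and 30 from it onward. The positions are chr6:64728875-64729154 on the plus strand for Atoh1, chr17:27728922-27729201 on the minus strand for Spdef and chr2:119325534-119325813 on the plus strand for Dll4, all of GRCm38.p6. Capitals mark the match.
Atoh1: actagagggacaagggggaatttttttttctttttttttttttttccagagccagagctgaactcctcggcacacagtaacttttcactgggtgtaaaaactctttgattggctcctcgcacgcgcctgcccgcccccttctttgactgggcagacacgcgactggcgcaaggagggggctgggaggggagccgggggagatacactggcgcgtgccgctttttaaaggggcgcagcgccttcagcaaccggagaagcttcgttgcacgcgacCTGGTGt
Spdef: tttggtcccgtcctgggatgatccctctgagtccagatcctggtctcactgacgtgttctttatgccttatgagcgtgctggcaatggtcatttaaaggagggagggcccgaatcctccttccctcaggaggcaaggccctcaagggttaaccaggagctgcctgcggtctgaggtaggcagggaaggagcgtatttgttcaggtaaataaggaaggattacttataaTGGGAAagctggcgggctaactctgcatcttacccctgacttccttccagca
Dll4: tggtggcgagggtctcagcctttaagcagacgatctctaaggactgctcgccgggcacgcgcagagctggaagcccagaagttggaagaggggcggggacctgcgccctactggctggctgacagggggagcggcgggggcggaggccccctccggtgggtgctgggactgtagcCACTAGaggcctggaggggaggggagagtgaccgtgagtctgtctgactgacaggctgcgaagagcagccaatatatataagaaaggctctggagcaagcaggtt
The motifs searched on both strands were the Rbpj core TGGGAA, the N-box CACNAG that Hes proteins bind, and the E-box CAGCTG, a form bound by factors of the Atoh1 type, which reads the same on both strands. The Atoh1 match is an N-box that begins 23 bases after the start, the Dll4 match is an N-box that begins 75 bases before it, and the Spdef match is an Rbpj core 22 bases before it. Such short motifs are common: 40.2% of 32851 promoters held an N-box, 23.8% an Rbpj core and 14.9% the E-box. Among the 11 promoters of the 9 genes, 5 held an N-box, 1 an Rbpj core and 3 the E-box. Gfi1, which was also called higher in goblet-like nuclei, held none of these motifs. A match is a stretch of letters and was not tested as a binding site.

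The filter on nuclei left 4884 and 4702 nuclei with 13259430 and 23605502 unique molecular identifiers (UMIs), each of which counts 1 captured RNA molecule. The median depth was 2058 and 4197 UMIs per nucleus, and 3 barcodes occurred in both. Slc26a3, an anion exchanger of colon enterocytes, had 398 and 671 counts per 1000000 UMIs (CPM), whereas Lct, a marker of the small intestine, had 1.43 and 0.72. Hif1a had 172 (95% interval 165 to 179) and 199 (193 to 205) CPM, and Ncr1 had 1 and 0 UMIs, so neither could check the genotype labels. Clusters were named from marker genes that did not include the 10 genes, and the names mean likeness to a cell type. Clusters 0, 3 and 21 met no name and held 26% and 10.9% of the nuclei, most of them in clusters 0 and 3, whose median depths were 1398 and 1514, and 1498 and 2620 UMIs. The epithelium comprised 2739 and 3548 nuclei. It held stem-like (334 and 308 nuclei), cycling-like (458 and 320), early goblet-like (273 and 439), mature goblet-like (282 and 496), enteroendocrine-like (146 and 131) and absorptive-like nuclei (521 and 835). It also held a Gsdmc enterocyte-like cluster and a crypt enterocyte-like cluster led by Grin2b, Htr4 and Cftr. The latter was named from only 2 markers, Htr4 and Cftr. Levels are sums of UMIs over a class and library, scaled to CPM, and their exact 95% Poisson intervals in parentheses include no error other than that of counting. The call of a gene as higher in a class required a CPM past 2-fold above that of the other epithelial nuclei in both libraries, among genes with at least 20 epithelial UMIs in each. This call was met in 9 of 54 combinations of gene and class: Atoh1, Spdef, Gfi1 and Dll4 in goblet-like nuclei, Dll4 also in enteroendocrine-like nuclei, and Notch1 and Notch2 in cycling-like nuclei. In stem-like nuclei 0 of 9 testable genes were called higher, where 3.52% of all 12489 genes were. In cycling-like nuclei 2 were (background 4.75%), in early goblet-like nuclei 2 (3.03%), in mature goblet-like nuclei 4 (2.76%), in enteroendocrine-like nuclei 1 (8.74%) and in absorptive-like nuclei 0 (6.17%). The opposite call, lower past 2-fold in both libraries, was met in absorptive-like nuclei by 6 of the 9 genes (background 17.1%), and Neurog3 was too sparse for any call.

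**Figure D1:**
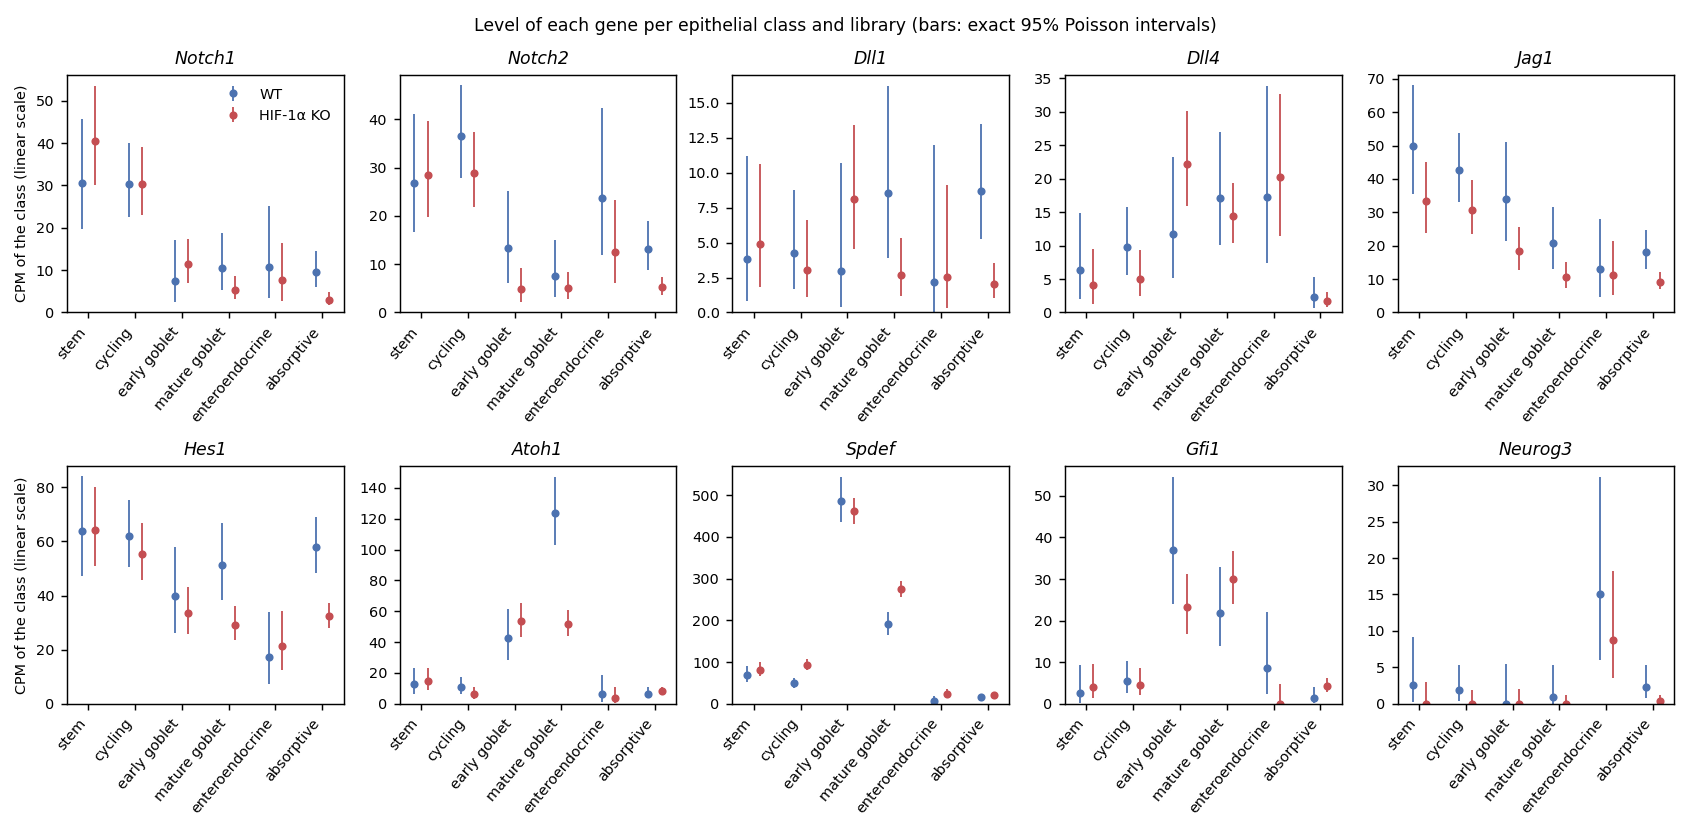
Level of each of the 10 genes in the 6 epithelial classes, in CPM of the class on a linear axis that starts at 0 and differs between panels. Points are the WT (blue) and HIF-1α KO (red) library and bars are exact 95% Poisson intervals. Spdef peaked in early goblet-like nuclei of both libraries (487 and 461 CPM), Atoh1 in mature goblet-like nuclei of the WT library (124 CPM), and the receptors in stem-like and cycling-like nuclei.

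Both receptors had their highest epithelial levels in stem-like and cycling-like nuclei. Notch1 (ENSMUSG00000026923, chromosome 2 of GRCm38, 26457903 to 26516663) stood at 30.6 (19.6 to 45.6) and 40.6 (30.2 to 53.6) CPM in stem-like nuclei. In cycling-like nuclei it had 30.4 (22.6 to 40.1) and 30.3 (23.1 to 39), which was 2.1-fold and 3.03-fold above the other epithelial nuclei. Stem-like and cycling-like nuclei thus overlapped in their intervals, and the stem-like level missed the call because it was 1.9-fold above the rest in the WT library, while it was 4.01-fold above in the other. In early goblet-like nuclei Notch1 had 7.38 and 11.4 CPM, in mature goblet-like nuclei 10.5 and 5.37, and in absorptive-like nuclei 9.58 and 3.02. Notch2 (ENSMUSG00000027878, chromosome 3, 98013527 to 98150361), the other receptor of the crypt, stood at 36.5 (27.9 to 47) and 28.8 (21.8 to 37.3) CPM in cycling-like nuclei, 2.39-fold and 2.96-fold above the rest. Its stem-like levels of 26.8 and 28.5 CPM overlapped with these, and its goblet-like levels lay between 4.87 and 13.3. Both cycling-like calls were lost with assignment by own marker score. That of Notch1 was also lost at a resolution of 0.5 and with nuclei weighted equally, and that of Notch2 with the unnamed clusters counted among the other epithelial nuclei.

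Among the ligands, Jag1 had its highest levels among the 6 classes in stem-like and cycling-like nuclei, like the receptors, and Dll4 was called higher in secretory classes. Jag1 (ENSMUSG00000027276, chromosome 2, 137081456 to 137116644), a Jagged ligand, stood at 49.8 (35.4 to 68.1) and 33.3 (23.9 to 45.2) CPM in stem-like and 42.6 (33.2 to 53.8) and 30.8 (23.6 to 39.6) in cycling-like nuclei. It was lower in mature goblet-like nuclei, at 20.9 (13.1 to 31.6) and 10.7 (7.35 to 15.2), and in absorptive-like nuclei, at 18.2 (13 to 24.8) and 9.23 (6.96 to 12). Jag1 was past 2-fold above the rest in none of the 6 classes in both libraries. The crypt enterocyte-like cluster, led by Grin2b, Htr4 and Cftr, had 52.5 (39.6 to 68.3) and 35.3 (28.2 to 43.6) CPM of Jag1, overlapping with the stem-like levels. Dll4 (ENSMUSG00000027314, chromosome 2, 119325784 to 119335962), a Delta ligand, was called higher in mature goblet-like nuclei, with 17.1 (10.1 to 27) and 14.4 (10.4 to 19.4) CPM, and in enteroendocrine-like nuclei, with 17.2 (7.44 to 33.9) and 20.2 (11.5 to 32.7). These were 2.57-fold and 2.39-fold, and 2.34-fold and 2.99-fold, above the other epithelial nuclei. In early goblet-like nuclei Dll4 stood at 11.8 (5.1 to 23.3) and 22.2 (15.9 to 30.1) CPM, in absorptive-like nuclei at 2.28 and 1.68, and in mesenchymal-like nuclei (fibroblast-like and smooth muscle-like), a background for free RNA, at 3.96 and 3.5. The call in mature goblet-like nuclei was lost without integration, at a resolution of 0.5, after thinning to 1000 UMIs and with nuclei weighted equally, and that in enteroendocrine-like nuclei with assignment by own marker score, with all barcodes and after thinning. These levels rest on few molecules, since the enteroendocrine-like nuclei held 8 and 16 Dll4 UMIs and the mature goblet-like nuclei 18 and 43. Dll1 (ENSMUSG00000014773, chromosome 17, 15367354 to 15376872), a Delta ligand of secretory progenitors, had 51 and 64 UMIs in the whole epithelium. Over the 6 classes its levels ran from 2.15 to 8.66 CPM in WT nuclei and from 2.01 to 8.12 in HIF-1α KO nuclei, and all neighbours in either order overlapped.

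Hes1 was called higher in none of the 6 classes. Hes1 (ENSMUSG00000022528, chromosome 16, 30064384 to 30067796), the repressor that Notch signals induce, stood at 63.8 (47.4 to 84.1) and 64.2 (50.8 to 80) CPM in stem-like nuclei and 62.1 (50.6 to 75.4) and 55.5 (45.6 to 66.9) in cycling-like nuclei. Its absorptive-like levels, 57.9 (48.3 to 68.9) and 32.4 (28 to 37.3) CPM, differed between the libraries. Its lowest level in both libraries was in enteroendocrine-like nuclei, at 17.2 (7.44 to 33.9) and 21.4 (12.5 to 34.3), which was 3.56-fold and 1.94-fold below the rest of the epithelium. By value Hes1 was not at its lowest in goblet-like nuclei: it had 39.9 and 33.6 CPM in early and 51.3 and 29.2 in mature goblet-like nuclei. These goblet-like levels overlapped with the enteroendocrine-like ones of their library, except in mature goblet-like nuclei of the WT library. In order of level the WT classes were stem-like, cycling-like, absorptive-like, mature goblet-like, early goblet-like and enteroendocrine-like, and each overlapped with its neighbour. Among HIF-1α KO nuclei the stem-like and cycling-like levels overlapped with each other and lay above those of the 4 remaining classes. Outside these 6 classes, Hes1 had 79.2 (63.1 to 98.2) and 56.8 (47.7 to 67.2) CPM in the crypt enterocyte-like cluster. The Gsdmc enterocyte-like cluster had 69.6 (55.9 to 85.5) and 46.3 (39.1 to 54.4). Both overlapped with the stem-like levels, and in the WT library both were higher by value.

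Atoh1 (ENSMUSG00000073043, chromosome 6, 64729125 to 64731245), the factor that commits crypt cells to the secretory lineage, was called higher in mature goblet-like nuclei, with 130 and 155 UMIs, or 124 (103 to 147) and 52 (44.2 to 60.9) CPM. This was 11.1-fold and 4.08-fold above the other epithelial nuclei, and the class held 59.1% and 41.1% of all epithelial Atoh1 UMIs. Early goblet-like nuclei had 42.8 (28.7 to 61.5) and 53.6 (43.5 to 65.2) CPM, 1.9-fold and 3.57-fold above the rest. In stem-like nuclei the level of 12.8 and 14.6 CPM, and in cycling-like nuclei of 11 and 6.06, was close to the 13.5 (7.85 to 21.6) and 12.8 (6.41 to 23) CPM of mesenchymal-like nuclei. Those should lack the gene, so the Atoh1 levels of stem-like and cycling-like nuclei were not above that reference. At least 1 Atoh1 UMI was seen in 25.5% and 22.8% of mature goblet-like nuclei, at median depths of 3086 and 5436 UMIs, and in 3.09% and 3.88% of mesenchymal-like nuclei, at 1961 and 2337. With each nucleus thinned to 1000 UMIs, which left out 0 mature goblet-like nuclei, the shares were 9.22% (6.11 to 13.2%) and 4.84% (3.12 to 7.11%), against 1.55% and 1.2% of mesenchymal-like nuclei, of which 0 and 7 were too shallow.

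Spdef (ENSMUSG00000024215, chromosome 17, 27714352 to 27728955), an Ets factor that drives goblet cell maturation, had its highest level in early goblet-like nuclei of both libraries. Its 330 and 851 UMIs in early goblet-like nuclei gave 487 (436 to 543) and 461 (430.1 to 493) CPM, 10.2-fold and 6.42-fold above the other epithelial nuclei. Mature goblet-like nuclei had 191 (165 to 219) and 275 (256 to 294) CPM, 2.89-fold and 3.5-fold above the rest, and the call in this class was lost without integration. The early goblet-like, mature goblet-like and remaining levels did not overlap in either library. Stem-like nuclei had 68.9 (51.8 to 89.9) and 82.1 (66.9 to 99.8) CPM, which lay above the 19.8 (12.8 to 29.2) and 25.7 (16.1 to 38.9) of mesenchymal-like nuclei, whereas absorptive-like nuclei, at 15.5 and 21.7, did not. Immune-like nuclei had 21.8 (7.98 to 47.3) and 50 (33.5 to 71.8) CPM. The stem-like level lay above this in the WT library but overlapped with it in the HIF-1α KO library. A Spdef UMI was found in 54.6% and 69.5% of early goblet-like nuclei, at median depths of 2090 and 3670 UMIs, and in 4.26% and 5.81% of mesenchymal-like nuclei. After thinning, which left out 0 and 1 early goblet-like nuclei, these shares were 34.4% and 31.7% against 2.13% and 1.59%.

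Gfi1 (ENSMUSG00000029275, chromosome 5, 107716657 to 107726036), a repressor that keeps goblet cells from the enteroendocrine fate, was called higher in both goblet-like classes. It had 36.9 (23.9 to 54.5) and 23.3 (16.8 to 31.3) CPM in early and 21.9 (13.9 to 32.8) and 29.9 (24 to 36.8) in mature goblet-like nuclei, between 3.06-fold and 7.11-fold above the rest, and the levels of early and mature nuclei overlapped in each library. The Gfi1 call in mature goblet-like nuclei was lost after thinning to 1000 UMIs. Early goblet-like nuclei held 36.2% and 23.4% of the epithelial Gfi1 UMIs, and mature goblet-like nuclei 33.3% and 48.4%. Enteroendocrine-like nuclei held 4 and 0 Gfi1 UMIs, the latter of which allows up to 3 UMIs or 3.78 CPM. Neurog3 (ENSMUSG00000044312, chromosome 10, 62133090 to 62134763), the switch to the enteroendocrine fate, had 18 and 11 UMIs in the whole epithelium. Of these, 7 per library lay in enteroendocrine-like nuclei, or 15.1 (6.06 to 31.1) and 8.82 (3.55 to 18.2) CPM, but 6 of the 7 in HIF-1α KO nuclei came from a single nucleus. All 7 of each library lay in cluster 14, led by Lmx1a, Piezo2 and Tph1, while the 13 and 30 nuclei of cluster 20, led by Pappa2, Gcg and Pyy, held 0, which allows up to 60.1 and 17.5 CPM. Early goblet-like nuclei held 0 Neurog3 UMIs in both libraries, which allows up to 4.43 and 1.62 CPM.

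Single clusters differed in these regulators. Cluster 18, with 53 and 49 nuclei, was counted as cycling-like but also carried early goblet markers, and its Spdef level was 257 (193 to 335) and 319 (262 to 385) CPM, against 18.1 (11.9 to 26.6) and 46.4 (36.6 to 58.1) in cluster 6, the other cycling-like cluster. Its Atoh1 level was 28.5 (10.5 to 62.1) and 14.5 (4.71 to 33.9) CPM, from 6 and 5 UMIs. The mature goblet-like class held cluster 12, led by St6gal1, Scin and Capn9, with 62.5 (37.7 to 97.7) and 49.4 (37 to 64.7) CPM of Atoh1, and cluster 9, led by Clca1, Fer1l6 and Fcgbp, with 148 (122 to 179) and 53.5 (43.6 to 64.9). The libraries thus overlapped in cluster 12 and did not in cluster 9. Spdef stood at 172 (144 to 205) and 263 (241 to 287) CPM in cluster 9 and at 237 (185 to 298) and 295 (263 to 329) in cluster 12, with overlap between the clusters of each library.

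**Figure D2:**
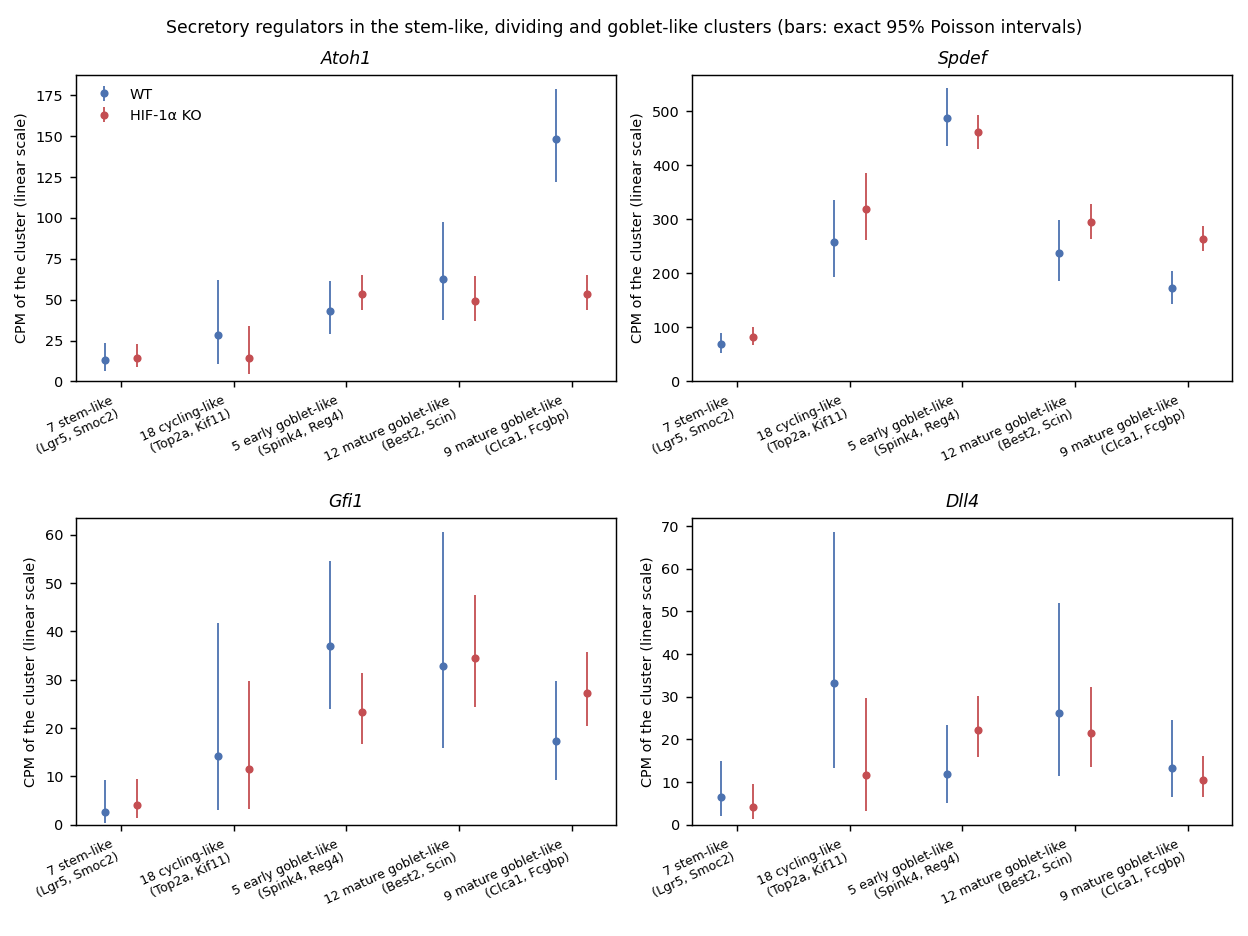
Atoh1, Spdef, Gfi1 and Dll4 in the stem-like cluster, the cycling-like cluster with early goblet markers and the 3 goblet-like clusters, in CPM of the cluster on linear axes from 0 (WT blue, HIF-1α KO red, bars exact 95% Poisson intervals). Spdef peaked in cluster 5, while Atoh1 of the WT library peaked in cluster 9 (148 CPM), where the HIF-1α KO library had 53.5.

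Compared directly, early and mature goblet-like nuclei differed in the same direction in both libraries for Spdef, whereas Atoh1 was higher in mature nuclei of the WT library and level in the other. The log2 ratio of early over mature was 1.35 (1.09 to 1.61) for Spdef among WT and 0.75 (0.61 to 0.89) among HIF-1α KO nuclei. For Atoh1 it was -1.53 (-2.16 to -0.94) and 0.04 (-0.34 to 0.42), and the difference between these ratios was not tested because there was 1 library of each genotype. Of the 6 genes with at least 20 UMIs in these nuclei of each library, 0 were past 2-fold in the same direction in both libraries. Among all 8082 such genes, 3.3% were higher in early and 3.18% higher in mature goblet-like nuclei in this way.

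Within mature goblet-like nuclei the regulators also met in single nuclei. Of the 72 WT nuclei with an Atoh1 UMI, 16 or 22.2% also had a Hes1 UMI, against 15.2% of the nuclei without Atoh1, while 23 of 113 HIF-1α KO nuclei or 20.4% did, against 12.5%. A Spdef UMI and an Atoh1 UMI met in 32 WT and 86 HIF-1α KO nuclei. Atoh1 was found in 26.7% of the WT nuclei with Spdef and 24.7% of those without, with 25.1% and 17.6% among HIF-1α KO nuclei. The nuclei with an Atoh1 UMI were also deeper, with medians of 3662 against 2961 UMIs and of 6370 against 5108, and the part of depth in these shares was not tested. The direction for Atoh1 and Hes1 was not the same in all classes. In early goblet-like nuclei Hes1 was found in 5% with Atoh1 against 9.88% without it among WT nuclei. Among HIF-1α KO nuclei of that class it was 19% against 11.4%.

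The genotypes were compared within each class wherever a gene reached 20 UMIs over both libraries. Log2 ratios put HIF-1α KO over WT and carry exact conditional 95% intervals. Of the 40 combinations that could be compared, 6 were past 2-fold, 2 higher and 4 lower in the HIF-1α KO library. In stem-like nuclei 0 of 6 genes were past 2-fold, where 12.3% of all genes compared were. In cycling-like nuclei it was 0 of 7 (background 9.41%), in early goblet-like nuclei 0 of 7 (11.6%), in mature goblet-like nuclei 1 of 8 (11.9%), in enteroendocrine-like nuclei 1 of 4 (8.75%) and in absorptive-like nuclei 4 of 8 (13.6%). Without regard to the size of the difference, the Poisson intervals of the libraries did not overlap in 9 of the 40. No share over all genes stands beside this count, so it cannot be read as particular to these genes.

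The largest number of UMIs behind a 2-fold difference was that of Atoh1 in mature goblet-like nuclei, lower in the HIF-1α KO library (124 and 52 CPM) with a log2 ratio of -1.25 (-1.59 to -0.90). No WT nucleus of this class held more than 8 Atoh1 UMIs and no HIF-1α KO nucleus more than 7. Without the nuclei in the top 5% of UMIs of their library and class the ratio was -0.94, under 2-fold, and over the other alternatives it lay between -1.49 and -1.07. Hes1 was lower as well in this class, with 51.3 (38.5 to 66.9) and 29.2 (23.4 to 36) CPM and a ratio of -0.81 (-1.32 to -0.30) on the log2 scale. Spdef was higher, with 191 and 275 CPM or 0.52 (0.30 to 0.75). The median log2 ratio of the 8 genes was -0.70, beside 0.03 over all genes compared in the class. Muc2, the main mucin and a naming marker of the class, had 5156 (5020 to 5295) and 4396 (4321 to 4472) CPM. In early goblet-like nuclei Atoh1, Spdef and Hes1 had log2 ratios of 0.32 (-0.29 to 0.97), -0.08 (-0.27 to 0.11) and -0.25 (-0.92 to 0.46), all with overlapping intervals of the libraries. The intervals allow an Atoh1 difference of up to 0.97 upward there.

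In absorptive-like nuclei both receptors and Dll1 were past 2-fold lower in the HIF-1α KO library, from low levels and at median depths of 3526 and 5947 UMIs. Dll1 had 19 and 12 UMIs or 8.66 (5.22 to 13.5) and 2.01 (1.04 to 3.52) CPM, a log2 ratio of -2.10 (-3.28 to -0.99). Notch1 had 21 and 18 UMIs or 9.58 (5.93 to 14.6) and 3.02 (1.79 to 4.78) CPM, a log2 ratio of -1.66 (-2.66 to -0.68). Notch2 had 29 and 31 UMIs or 13.2 (8.86 to 19) and 5.21 (3.54 to 7.39) CPM, a log2 ratio of -1.35 (-2.12 to -0.56). Mesenchymal-like nuclei had 11.9 and 7 CPM of Notch1, 116 and 88.7 of Notch2 and 22.2 and 12.8 of Dll1, all above the absorptive-like levels by value, and the part of free RNA in these ratios was not tested. All 3 were lower by value in each of the 2 absorptive-like clusters, but with nuclei assigned by their own marker scores the ratio of Notch1 was -0.99, just under 2-fold. Jag1 and Hes1 had log2 ratios of -0.98 (-1.60 to -0.36) and -0.84 (-1.17 to -0.50), just short of 2-fold, also without overlap of the libraries. Gfi1 was higher, with 3 and 25 UMIs or 1.37 (0.282 to 4) and 4.2 (2.72 to 6.2) CPM and a log2 ratio of 1.62 (-0.10 to 3.99), and these intervals overlapped. The median log2 ratio of the 8 genes in absorptive-like nuclei was -0.91, beside -0.08 over all genes compared there. The lower Jag1 was not particular to this class. Its log2 ratio was -0.58 in stem-like, -0.47 in cycling-like, -0.88 in early goblet-like and -0.96 in mature goblet-like nuclei. Hes1 had -0.59 (-0.98 to -0.19) in the Gsdmc enterocyte-like cluster but 0.31 (-0.98 to 1.74) in enteroendocrine-like nuclei.

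**Figure D3:**
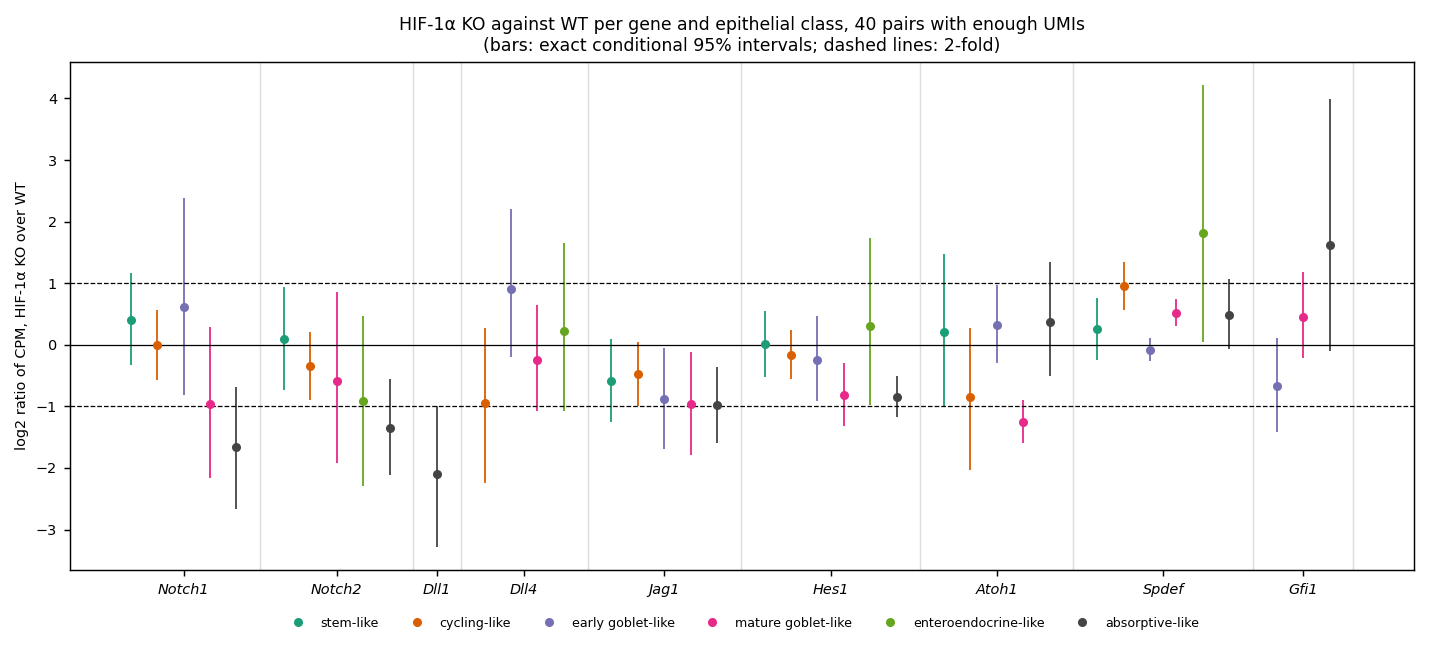
Log2 ratio of CPM, HIF-1α KO over WT, for the 40 combinations of gene and epithelial class with at least 20 UMIs (colors: classes, bars: exact conditional 95% intervals, dashed lines: 2-fold). In the absorptive-like class 5 points lie at or below -0.84, Atoh1 in mature goblet-like nuclei lies at -1.25, and most other bars cross 0.

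The remaining call was Spdef in enteroendocrine-like nuclei, with 3 and 18 UMIs or 6.46 (1.33 to 18.9) and 22.7 (13.4 to 35.8) CPM and a log2 ratio of 1.81 (0.04 to 4.22). Both levels were at or below those of mesenchymal-like nuclei (19.8 and 25.7 CPM), and the ratio turned to -0.84 once nuclei were assigned by their own marker scores. The part of free RNA in this ratio was not tested. Spdef in cycling-like nuclei had 48.7 (38.6 to 60.6) and 93.9 (80.9 to 108) CPM, a log2 ratio of 0.95 (0.56 to 1.34). Without cluster 18, which carries early goblet markers, the ratio was 1.36, past 2-fold, and after thinning to 1000 UMIs it was 0.17. In stem-like nuclei the 6 genes compared had a median log2 ratio of 0.15, beside 0.14 over all genes, and Hes1 had 0.01 (-0.52 to 0.55).

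Outside the epithelium, each receptor and ligand was higher than in the epithelium in some classes and not in others. Notch1 had 115 (71.5 to 176) and 91.9 (45.9 to 164) CPM in endothelial-like and 157 (108 to 221) and 137 (81.3 to 217) in lymphatic endothelial-like nuclei, above the 17.4 (14.8 to 20.3) and 12 (10.5 to 13.6) of the epithelium in both libraries. Notch2 had 142 (115 to 174) and 108 (80.2 to 142) in smooth muscle-like and 127 (88.4 to 176) and 157 (126 to 193) in immune-like nuclei, against 19.1 (16.4 to 22.2) and 11.6 (10.2 to 13.2) in the epithelium. Jag1 had 87.9 (50.3 to 143) and 167 (102 to 258) CPM in endothelial-like nuclei, of which there were 79 and 33. Dll1 had 36.7 (23 to 55.5) and 25.3 (12.2 to 46.6) in fibroblast-like nuclei, above its epithelial 5.57 (4.15 to 7.32) and 3.14 (2.42 to 4.01). Dll4 had 49.5 (22.6 to 93.9) and 33.4 (9.11 to 85.6) in endothelial-like nuclei, against 7.87 (6.15 to 9.9) and 7.26 (6.14 to 8.53) in the epithelium. Its HIF-1α KO endothelial-like level rested on 4 UMIs in 2 nuclei, 3 of them from 1 nucleus. For these genes and classes the intervals of WT and HIF-1α KO overlapped. Notch1 had 8.33 and 10.1 CPM in fibroblast-like and 15.1 and 4.32 in smooth muscle-like nuclei, no higher than in the epithelium beyond the intervals.

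**Figure D4:**
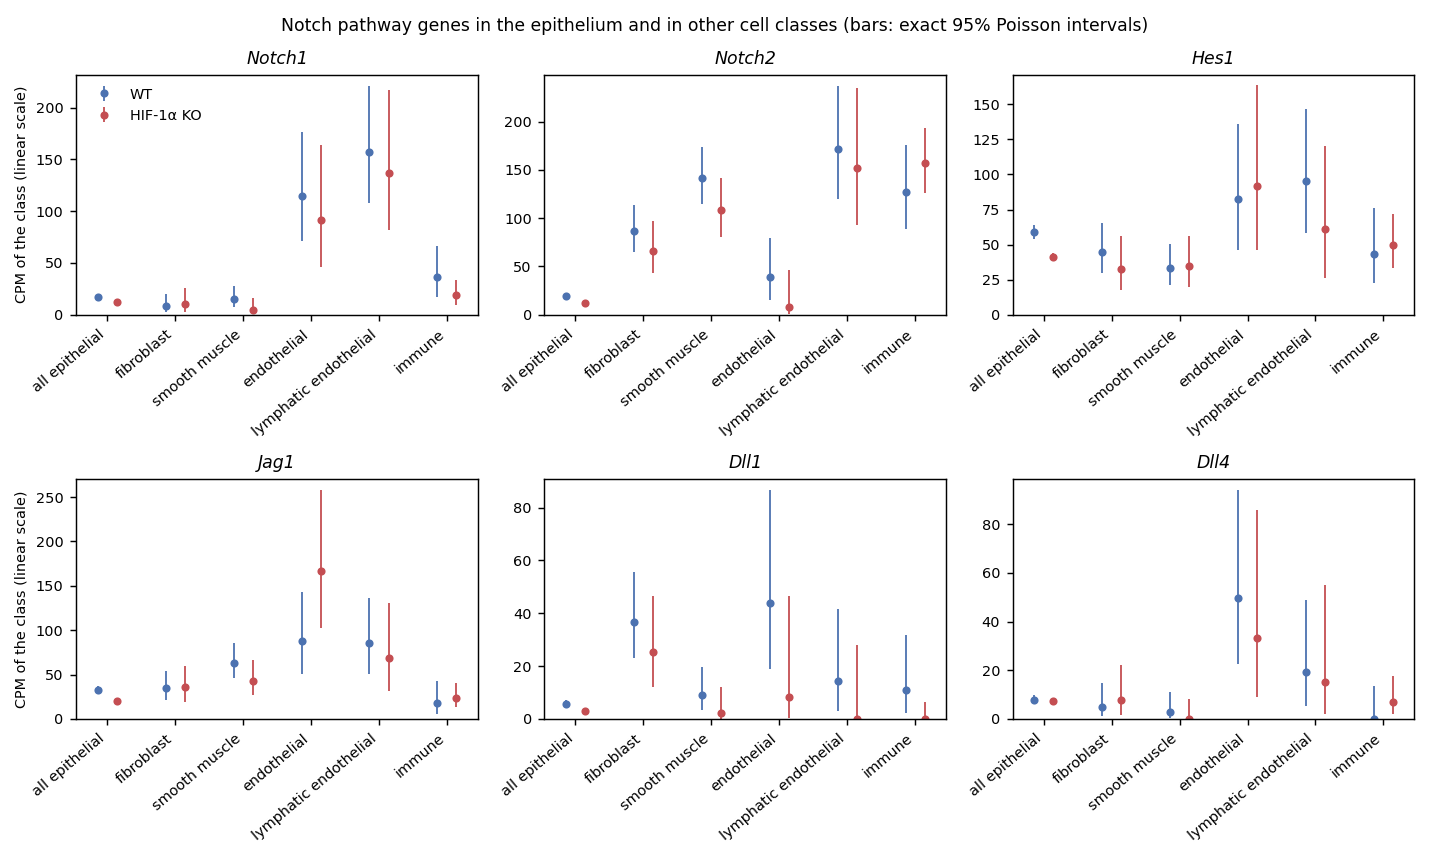
Notch1, Notch2, Hes1, Jag1, Dll1 and Dll4 in all epithelial nuclei and in 5 other classes, in CPM of the class on linear axes from 0 (WT blue, HIF-1α KO red, bars exact 95% Poisson intervals). Notch1 was highest in the lymphatic endothelial-like class (157 and 137 CPM), and Dll1 lay higher in fibroblast-like nuclei (36.7 and 25.3 CPM) than in the epithelium.

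The profiles over the 6 classes of both libraries, 12 points that share libraries and depth, were alike among Atoh1, Spdef and Gfi1 and among Notch1, Notch2 and Jag1, with other genes between. Pearson's r of log2(CPM + 10) was 0.85 for Atoh1 and Gfi1, 0.82 for Spdef and Gfi1 and 0.81 for Atoh1 and Spdef. It was 0.84 for Notch1 and Notch2, 0.81 for Notch1 and Jag1 and 0.78 for Hes1 and Jag1, 0.69 for Hes1 and Notch1, 0.45 for Hes1 and Notch2 and 0.06 for Hes1 and Atoh1. Dll1 had 0.46 with Atoh1 and 0.47 with Hes1. Dll4 had 0.51 with Gfi1 and -0.58 with Hes1. Of 6454 genes, those most like Atoh1 were Best2, Qsox1 and Muc2, with r from 0.96 to 0.97, of which Best2 and Muc2 are naming markers. Those most like Spdef were Galnt10, Spink4, also a naming marker, and Arf4 (0.98 each), and those most like Gfi1 were Tmf1, Mgat5 and Eif2ak3 (0.94 each). For Hes1 they were Zfp36l2, Ppia and Med20 (0.92 to 0.94), for Notch1 Lmo4, Rps6kc1 and Htr4 (0.94 to 0.96), and for Notch2 Foxd2os, Ano6 and Slc25a28 (0.95 to 0.96). For Jag1 they were Peak1, Arhgap10 and Snhg1 (0.95 to 0.98), for Dll4 Slc43a2, E330009J07Rik and Ghr (0.92 to 0.93), and for Dll1 Naa30, Ctdnep1 and Capn1 (0.81 to 0.86).

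The wider pathway was described with 74 further genes in 7 lists. The enteroendocrine transcription factors separated the classes most: 9 of the 9 testable ones were called higher in enteroendocrine-like nuclei (background 8.74%), with a median log2 ratio over the rest of 6.03, beside -0.09 over all genes. Nkx2-2, for example, had 543 and 365 CPM there and 5.52 and 3.78 elsewhere in the epithelium, and Neurod1, which acts directly below Neurog3, had 198 and 121 against 3.68 and 1.53. The others were Insm1, Pax6, Isl1, Rfx6, Sox4, St18 and Myt1. Of 9 testable goblet transcription factors, 4 were called higher in early goblet-like nuclei, namely Creb3l1, Creb3l4, Foxa3 and Cbfa2t3 (background 3.03%), and 2 in mature goblet-like nuclei, Foxa2 and Foxa3 (background 2.76%). Creb3l1, a factor of the secretory pathway, had 851 and 841 CPM in early and 191 and 306 in mature goblet-like nuclei, past 2-fold in both libraries, as was Cbfa2t3 with 111 and 198 against 31.4 and 55.4. Klf4 was called higher in absorptive-like nuclei (437 and 503 CPM), and Cbfa2t3 also in enteroendocrine-like nuclei.

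Among genes that modify Notch ligands and receptors, 3 of 13 testable ones, Lfng, Neurl1a and Dtx3, were called higher in enteroendocrine-like nuclei (background 8.74%), 1, Neurl1b, in absorptive-like (6.17%) and 1, Dtx4, in stem-like nuclei (3.52%), and 0 in the other classes. Dtx3 had 17.2 and 34 CPM in enteroendocrine-like nuclei and 4.49 and 1.84 in the rest. Of the 8 genes of receptor cleavage, 3 γ-secretase subunit genes, Aph1a, Aph1b and Psenen, were called higher in absorptive-like nuclei (background 6.17%), Aph1a with 179 and 67.5 CPM against 64.8 and 33, and Psenen was also higher in mature than in early goblet-like nuclei. Among the nuclear complex genes, the corepressor genes Tle1 and Tle3 were called higher in enteroendocrine-like and in stem-like nuclei respectively. Hes2 was the single gene called from the list headed Notch targets, in mature goblet-like nuclei, at 4.75 and 3.02 CPM. Among the other receptors and ligands, 0 of the 2 testable genes were called higher in any of the 6 classes.

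Between the genotypes, several of these genes were past 2-fold lower in the HIF-1α KO library in more than 1 class. Sox9, a gene of crypt progenitors, had 54.3 and 17.8 CPM in absorptive-like nuclei, a log2 ratio of -1.61. It was also past 2-fold lower in mature goblet-like (36.1 and 13.8) and enteroendocrine-like nuclei (34.5 and 10.1), but had 48.5 and 51.2 in stem-like nuclei. All 3 genes compared from the list headed Notch targets, Sox9, Hes6 and Nrarp, were past 2-fold lower in absorptive-like nuclei. The heading was given when the list was drawn up, and whether these genes respond to Notch in these nuclei was not tested. Among all genes there, 13.6% were past 2-fold in either direction. Hes6 had 16 and 20 UMIs and Nrarp 15 and 17. The median log2 ratio of the 3 was -1.26, beside -0.08 over all genes. Hes1, which this list did not include, had -0.84 in these nuclei and was not past 2-fold. Maml2, a coactivator of the Notch complex, had 37.1 and 8.06 CPM in mature goblet-like nuclei, a log2 ratio of -2.20 (-3.00 to -1.43), and was past 2-fold lower in early goblet-like and absorptive-like nuclei too. Aph1a had a log2 ratio of -1.41 (-1.61 to -1.20) in absorptive-like nuclei and was lower past 2-fold in mature goblet-like (96.9 and 35.2 CPM) and enteroendocrine-like nuclei (62.4 and 26.5). Foxa2, which acts in goblet cells, was past 2-fold lower in mature goblet-like (69.4 and 34.6 CPM), enteroendocrine-like and absorptive-like nuclei. Rbpj, the DNA-binding core of the pathway, had log2 ratios between -0.39 and 0.29 in the 6 classes.

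Other genes of the lists were past 2-fold in 1 or 2 classes. Lower in the HIF-1α KO library were Notch4 and Aph1b in absorptive-like nuclei (8.66 and 4.2, and 8.66 and 3.53 CPM), Lfng in mature goblet-like nuclei (13.3 and 5.71) and Mib2 in early goblet-like nuclei (25.1 and 11.9). So were Sox4 in early goblet-like nuclei (19.2 and 7.04) and St18 in cycling-like nuclei (32.3 and 4.04). Higher were Creb3l4 in early (17.7 and 36.8) and mature goblet-like nuclei (5.7 and 12.8), and Ncstn and Klf4 in stem-like nuclei (34.5 and 71.5, and 47.2 and 119). The interval of Creb3l4 in mature goblet-like nuclei included 0. The Poisson intervals of the libraries overlapped for several of these genes in the classes named, among them Notch4, Lfng and Mib2. Notch4 was higher by value, under 2-fold, in cycling-like, early goblet-like and mature goblet-like nuclei (log2 ratios of 0.98, 0.94 and 0.80). It was lower in stem-like nuclei (-0.75). In enteroendocrine-like nuclei Pax6 (47.4 and 102) and Rfx6 (202 and 416) were higher. Cluster 20, the Gcg and Pyy cluster, made up 13 of the 146 and 30 of the 131 enteroendocrine-like nuclei, and the part of this makeup in both ratios was not tested.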

How the data were processed

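Single-nucleus RNA of frozen colon was sequenced in 2 libraries, WT and HIF-1α KO, on the 10x Genomics platform. The authors deposited raw UMI counts per gene and barcode, without normalization, made with Cell Ranger 7.0.1 on mm10 (GRCm38) per the submitters' processing notes. Whether intronic reads were counted is not given in the sources used here.

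Nuclei with 400 to 5000 detected genes and at most 10% mitochondrial UMIs were kept. Counts were log-normalized, 2000 variable features were chosen without the 10 genes and the pathway lists, anchors from canonical correlation joined the libraries, and clusters were drawn from 30 principal components at a resolution of 1 with seed 1 (R 4.3.3, Seurat 5.3.0). Clusters were named by the class whose markers had the greatest mean log2 ratio against the remaining nuclei (10 CPM added, mean of at least 0.5). A name needed 3 markers with a log2 ratio of at least 1 that 10% of the cluster's nuclei held, and 1 marker among the 10 leading genes. The crypt enterocyte class had only 2 markers, Htr4 and Cftr, and needed both. The data had been seen when these limits were set. No doublet caller was run; leaving out the nuclei with the most UMIs was an alternative.

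UMIs were summed per library and class with Python 3.11.15, numpy 2.4.6, pandas 2.3.3 and scipy 1.17.1, and plots were drawn with matplotlib 3.10.9. Scaling by TMM used edgeR 4.0.16, with no test. A count of 0 was taken as up to 3 UMIs. Genes of the lists, except those not reported here, were named where past 2-fold, and the 3 genes most like each of the 10 by correlation, among genes with at least 200 epithelial UMIs per library. The 2-fold call between genotypes was tried on simulated counts with known changes and counting error only. The changed genes had counts well above the minimum, so this trial does not speak for calls on few UMIs. Positions came from GENCODE M21 and promoters from RefSeq. The 10 genes and the lists were chosen with earlier results of these data known. Alternatives were no integration, resolutions of 0.5 and 2, assignment by each nucleus's own marker score, all barcodes, thinning to 1000 UMIs, nuclei weighted equally, the top 5% of UMIs left out, other minimum counts, scalings and folds, and, chosen after seeing the data, unnamed clusters counted among the other epithelial nuclei and cluster 18 left out.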

Additional observations from a re-analysis of the deposited data

How the results depend on the processing

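The 9 combinations of gene and class called higher numbered between 7 and 13 under the alternatives. The number past 2-fold between the genotypes, 6 of 40, was 10 of 36 without integration, 10 of 40 with assignment by each nucleus's own marker score, 1 of 19 after thinning to 1000 UMIs (Atoh1 in mature goblet-like nuclei), 2 of 26 with at least 50 UMIs (Atoh1 in mature goblet-like and Notch2 in absorptive-like nuclei), 11 of 59 with no minimum and 20 of 40 at 1.5-fold. All 6 original calls remained without integration, with no minimum and at 1.5-fold, 5 when each nucleus weighed the same, and 4 with the own marker score or without the top 5% of UMIs. The class with the highest level was the same in both libraries for 6 of the 10 genes, and for 3 with assignment by own marker score. The cause of these changes was not tested, except that fewer genes are compared after thinning or under a higher minimum. Of 1207 values of single genes, 1186 moved by less than their counting interval, 20 moved by more and 1 turned, the log2 ratio of Spdef in enteroendocrine-like nuclei, to -0.84 with the own marker score. TMM scaling shifted all log2 ratios by between -0.14 (stem-like) and 0.08 (absorptive-like). Depth limits the sparse genes: most absorptive-like ratios could not be computed after thinning, and for Neurog3 no difference was detectable. Unnamed clusters counted among the other epithelial nuclei, or cluster 18 left out, both chosen after seeing the data, gave 6 and 7 genotype calls. No paired analysis was possible because each genotype had 1 library.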
